A study of Homo sapiens with 9 samples.

Results

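The genes described here code for the factors that start, carry forward and end protein synthesis on the ribosome, and for the proteins that control them. They were chosen by symbol in the deposited identifier table: every symbol beginning with EIF1, EIF2, EIF3, EIF4, EIF5, EIF6, EEF1, EEF2, ETF1 or GSPT, without pseudogenes and without 7 genes that the rule leaves out by name. The rule gave 64 members of the 50433 symbols in the series. A further 96 symbols with these beginnings were pseudogenes by their RefSeq type. Of the members, 60 code for protein, and the other 4 (EEF1E1-MUTED, EIF1AX-AS1, EIF2B5-AS1 and EIF2B5-IT1) are non-coding or readthrough genes that code for no factor of their own.

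In textbook outline, eIF2 brings the initiator tRNA to the small ribosomal subunit, eIF2B recharges eIF2 with GTP, and eIF1, eIF1A, eIF3 and eIF5 help the subunit scan the mRNA to a start codon. The eIF4 proteins hold the capped end of the mRNA, eEF1 delivers each further tRNA, and the release factors encoded by ETF1, GSPT1 and GSPT2 read stop codons. Termination at an early stop codon is what triggers nonsense-mediated decay (NMD), the pathway that destroys mRNAs carrying such stops, and the release factors bind UPF1, its central helicase.

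The study sequenced cytoplasmic poly(A)+ RNA of the b-39 subline of HEK293 Flp-In T-Rex. HEK293 is a cell line from human embryonic kidney, and in this subline a b-globin reporter with a premature stop codon (PTC39) is expressed from the Flp-In site. The 4 RNA-seq libraries were labelled SMG6/XRN1 depletion, UPF1/XRN1 depletion, XRN1 depletion and control, the last treated with siRNA against EGFP. XRN1 is the main cytoplasmic exonuclease that digests RNA from the 5' end, and SMG6 is the endonuclease of NMD. Each condition had 1 library of 1 subline, so no difference below has a replicate check or a p-value, and intervals cover counting error alone. All groups carried the reporter.

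Estimated depth was 31476528 to 35983475 reads per library. The targeted mRNAs did not bear out every label. SMG6 was at 7.66 FPKM (fragments per kilobase of transcript, scaled to the library's mapped total) in the library labelled SMG6/XRN1, 5.97 in UPF1/XRN1, 5.55 in XRN1 and 4.77 in control. XRN1 was at 10.1, 6.50, 7.31 and 7.80 FPKM in the same order, and UPF1 at 11.4, 8.59, 11.6 and 6.71 FPKM. No target was lowest in every library labelled as depleted of it, so every library name below is the label's name and not a measured depletion. The HEK293 markers KRT8, KRT18, CDH2 and VIM ranged from 6.96 to 380 FPKM over the libraries, NEFM and PAX2 stayed under 1 FPKM, and the markers of other cell types stayed under 1 FPKM apart from HBA1, an alpha-globin gene, at 3.83 to 6.21 FPKM.

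A locus could be compared for 49 of the 64 members. Another 7 shared an assembled locus in which they held under 80% of the signal, among them EIF4G1 with EIF2B5, and 6 had no row in the gene table, namely EIF3A, EIF3F, EIF4G3, EIF1AY, EIF1AX-AS1 and EIF2B5-AS1. EIF2S3L and EIF4E1B were below the mean of 1 FPKM required. Changes are given as log2 of (FPKM + 1) in one library over (FPKM + 1) in the other, and a change of at least 2-fold was called. The comparisons with XRN1 share the XRN1 library, and those with control share the control library, so they are not independent of one another.

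The 49 genes moved little. In bulk RNA of this kind, fewer cells with an mRNA and less of it per cell cannot be told apart. In SMG6/XRN1 over XRN1, 0 of 49 were at least 2-fold higher, against 1.36% of all 12164 loci tested, and 0 of 49 were at least 2-fold lower, against 0.173%. In UPF1/XRN1 over XRN1 the counts were again 0 higher, against 2.52% of all loci, and 0 lower, against 0.534%. In XRN1 over control 1 of 49 was higher, EIF4EBP1, against 4.11% of all loci, and 0 were lower, against 0.37%. With so few members, counts of 0 or 1 cannot be told from those backgrounds.

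More loci were called against the control. In SMG6/XRN1 over control 0 of 49 were at least 2-fold higher, against 9.3% of all loci, and 0 were lower, against 0.263%. In UPF1/XRN1 over control 1 of 49 was higher, EIF5, against 10.2% of all loci, and 0 were lower, against 0.575%. The call on EIF5 was lost relative to the median of all loci, at 0.94. On the isoform signal EIF5 and EIF2AK3 passed 2-fold in both, at 1.04 and 1.09 in SMG6/XRN1 over control and at 1.27 and 1.10 in UPF1/XRN1 over control. On FPKM the share of members called higher was below that of all loci in both, and no test of that difference was made.

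Members lay below the median locus in each comparison. Their median log2 change was -0.04 in SMG6/XRN1 over XRN1, against 0.12 over all loci. It was -0.15 in UPF1/XRN1 over XRN1, against 0.02 over all loci, and 0.06 in XRN1 over control, against 0.14 over all loci. In UPF1/XRN1 over XRN1, 14 of 49 were above 0 and 35 below, whereas 52.1% of all loci were above 0. The split was 22 above 0 and 27 below in SMG6/XRN1 over XRN1. Relative to the median of all loci, which centring sets to 0, 10 of 49 were above it and 39 below in SMG6/XRN1 over XRN1, and 13 were above and 36 below in UPF1/XRN1 over XRN1. On the spike-in normalised isoform signal summed per locus, 31 of 49 were above 0 in SMG6/XRN1 over XRN1, where the median of all loci was 0.21, and 16 of 49 in UPF1/XRN1 over XRN1, where that median was 0.09.

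**Figure D1:**
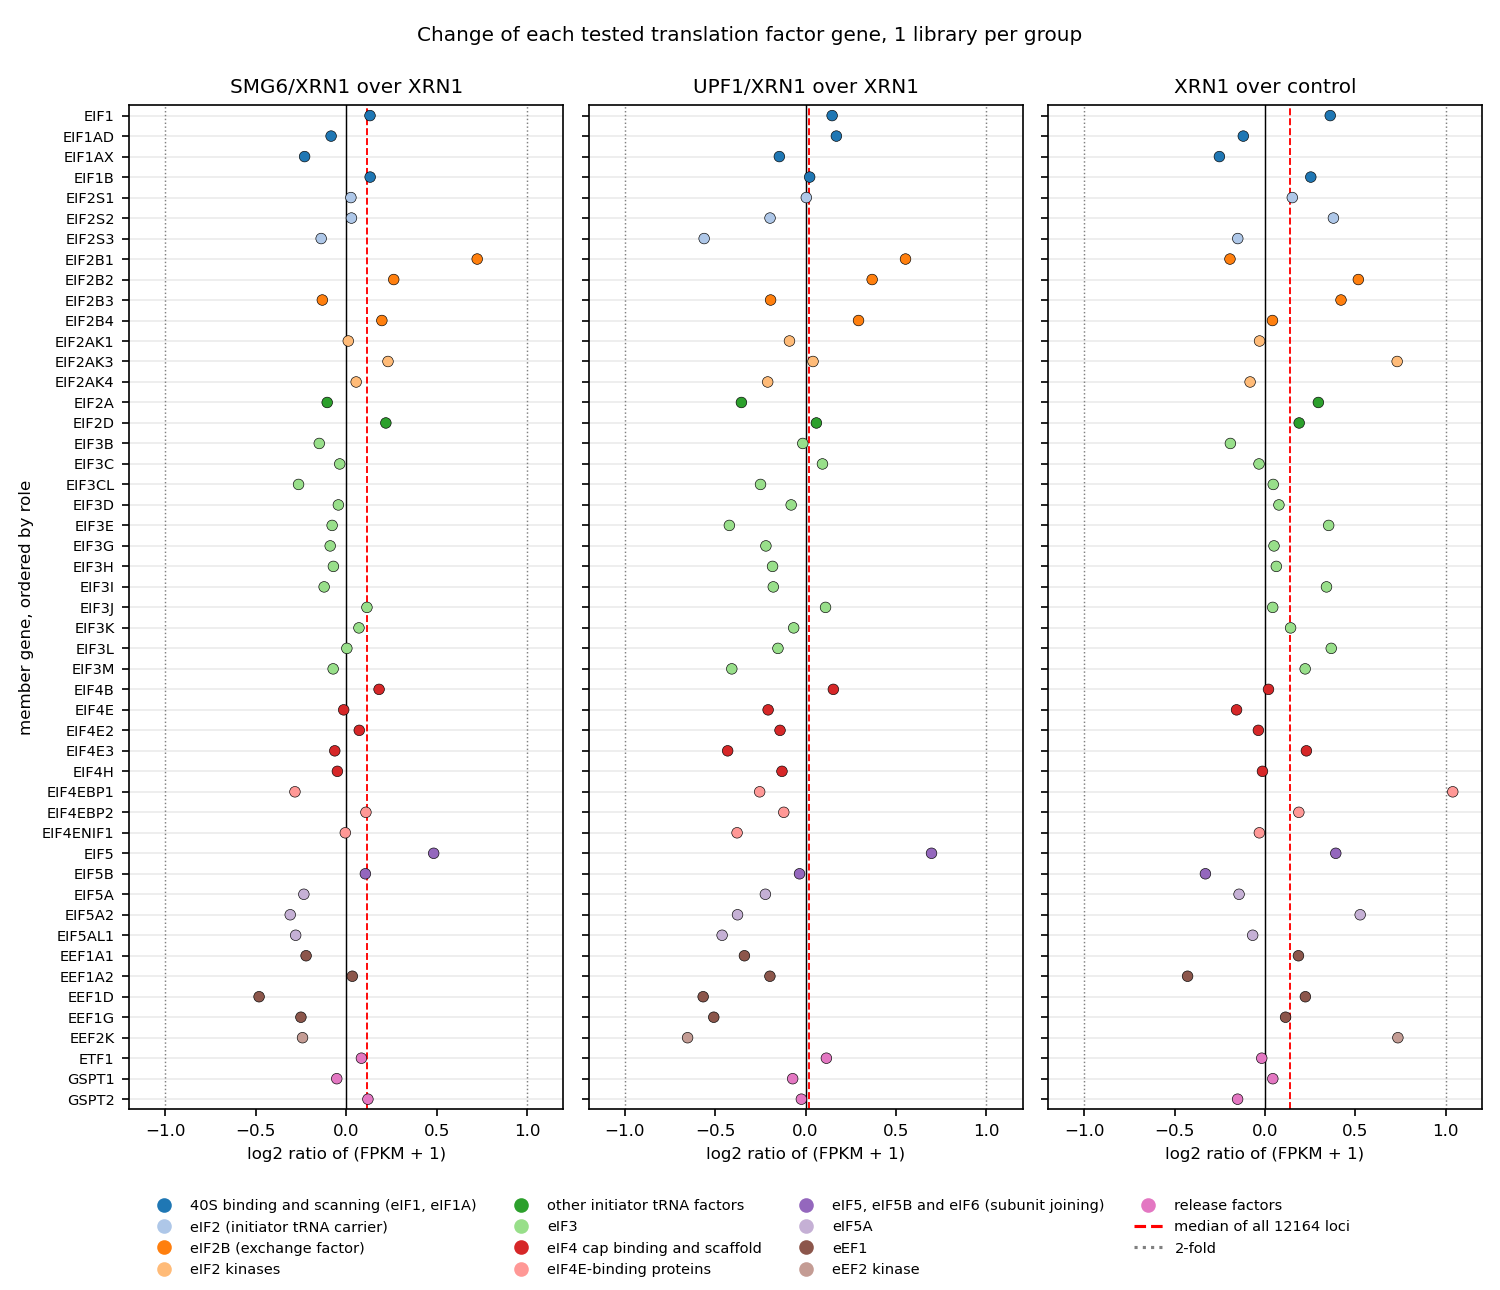
Each point is 1 of the 49 genes compared, coloured and ordered by role, at its log2 ratio of (FPKM + 1) between 2 libraries. The black line is 0, the red broken line the median of all 12164 loci and the dotted lines 2-fold. Most points lie within 0.5 of 0, EIF4EBP1 alone passes 2-fold in XRN1 over control, and EIF5 and EIF2B1 stand highest in both co-depletions over XRN1.

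Among the factors that scan for the start codon and check it, EIF5 had the largest log2 change in UPF1/XRN1 over XRN1. EIF5, the protein that makes eIF2 hydrolyse its GTP once the start codon is found, was at 326 FPKM in SMG6/XRN1, 378 in UPF1/XRN1, 233 in XRN1 and 178 in control. It was lowest in control, higher in XRN1, higher again in SMG6/XRN1 and highest in UPF1/XRN1. The log2 change was 0.48 in SMG6/XRN1 over XRN1, 0.70 in UPF1/XRN1 over XRN1, 0.39 in XRN1 over control and 1.09 in UPF1/XRN1 over control. In estimated reads scaled by spike-in, UPF1/XRN1 was 1.69 times XRN1 (95% interval 1.67 to 1.72) and SMG6/XRN1 1.44 times XRN1 (1.42 to 1.47).

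EIF1, which keeps the scanning ribosome from stopping at poor start codons and so opposes eIF5, was at 398 FPKM in SMG6/XRN1, 402 in UPF1/XRN1, 363 in XRN1 and 283 in control. Its close relative EIF1B was at 100 FPKM in SMG6/XRN1, 92.8 in UPF1/XRN1, 91.4 in XRN1 and 76.5 in control. Both were higher in the 3 depleted libraries than in control, by less than 2-fold. EIF1AX, the eIF1A of the X chromosome, was lower there, at 125, 132 and 146 FPKM in SMG6/XRN1, UPF1/XRN1 and XRN1, against 175 in control. EIF1AD, a protein with an eIF1A-like domain, was at 9.94, 12.05, 10.6 and 11.6 FPKM in SMG6/XRN1, UPF1/XRN1, XRN1 and control.

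In human cells the translation of the EIF1 mRNA is known to depend on the poor surroundings of its own start codon, and that of EIF5 on short reading frames upstream of its start. The start regions are therefore shown, from the GENCODE protein-coding transcript with the most signal, with the start codon in capitals, 10 bases of leader before it and 9 coding bases after it.
EIF1-203: atcgtatcgtATGtccgctatc
EIF1B-201: ctagtatcgcATGtccactatc
EIF5-201: ataagccaaaATGtctgtcaat
EIF3B-201: cgttgggcccATGcaggacgcg
EIF3L-202: cagaaagtgtATGagctacagg
EEF1G-201: cggaatcaccATGgcggctggg
EIF5A-207: gcctcttaaaATGgcagatgac
A strong context was taken as A or G at the third base before the A of the start codon together with G directly after the codon, and a weak one as neither. EIF1, EIF1B, EIF3B and EIF3L were the 4 weak ones among 47 members with such a leader, or 8.51%, against 7.58% of 9864 loci. For 3 of these the transcript shown was a small part of its gene's signal by its exact exon chain, 9.15% to 11.8% over the libraries for EIF1-203, at most 10.1% for EIF3B-201 and 0.79% to 4.90% for EIF3L-202, while EIF1B-201 held at least 99.8%. The leading isoforms of EIF1 and EIF3L, EIF1-205 and EIF3L-212, are annotated as retained introns. EIF5-201 by its exact chain held 2.76% to 4.92%, since the leading isoform of EIF5 has a junction outside it. EEF1G and EIF5A were among the 25 strong ones, 53.2% against 45.3%. EIF5-201 had a leader of 676 bases with 6 upstream ATG triplets, of which 4 opened frames that closed before the main start, and EIF1-203 had 0 in 146 bases. At least 1 such closed frame was found in 15 of 47 members, 31.9%, against 43.3% of the 9864 loci. The median log2 change in UPF1/XRN1 over XRN1 was -0.03 for those 15 members and -0.18 for the 32 without, against 0.03 and 0.00 for the loci with and without one. It was 0.03 and -0.06 in SMG6/XRN1 over XRN1, against 0.13 and 0.10 for the loci. In XRN1 over control it was 0.08 and 0.05, against 0.14 and 0.14 for the loci. In the co-depletions over control the members with a closed frame were the lower ones, at 0.04 against 0.15 in SMG6/XRN1 and at -0.0027 against 0.01 in UPF1/XRN1. The loci with and without one were at 0.26 and 0.23 in SMG6/XRN1 over control and at 0.16 and 0.12 in UPF1/XRN1 over control. These leaders are the annotated ones, and leaders were not measured.

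Of the 3 eIF2 subunits, EIF2S3 alone was over 0.5 from 0 on the log2 scale in a co-depletion over XRN1. EIF2S3, the GTP-binding subunit, was at 206 FPKM in SMG6/XRN1, 154 in UPF1/XRN1, 227 in XRN1 and 252 in control, a log2 change of -0.56 in UPF1/XRN1 over XRN1. EIF2S1, the subunit that stress kinases phosphorylate, was at 152, 150, 150 and 135 FPKM in SMG6/XRN1, UPF1/XRN1, XRN1 and control, nearly the same in the 3 depleted libraries. EIF2S2 was at 439, 376, 431 and 331 FPKM in that order, highest in SMG6/XRN1 and lowest in control. EIF2S3 has a near-identical retrogene copy, EIF2S3L, listed at 0.51 to 1.36 FPKM, and reads could be split between them.

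The subunits of eIF2B were mostly higher in the co-depletions. EIF2B1 was at 60.5 FPKM in SMG6/XRN1, 53.6 in UPF1/XRN1, 36.2 in XRN1 and 41.6 in control. EIF2B2 was at 42.9, 46.2, 35.6 and 24.6 FPKM in the same order, and EIF2B4 at 17.8, 19.1, 15.4 and 14.9. In these 3 both co-depleted libraries exceeded both others on FPKM. Relative to the median of all loci, EIF2B4 was at -0.01 in SMG6/XRN1 over control, against 0.24 before centring. For EIF2B1 the log2 change was 0.72 in SMG6/XRN1 over XRN1 and 0.55 in UPF1/XRN1 over XRN1, with read ratios of 1.49 (95% interval 1.41 to 1.57) and 1.36 (1.29 to 1.43). EIF2B3 did not follow, at 58.96, 56.5, 64.7 and 48.1 FPKM. The 5 eIF2B genes include EIF2B5, which held 6.59% of the signal of the locus it shares with EIF4G1 and is given by reads instead, 1619 in SMG6/XRN1, 2078 in UPF1/XRN1, 1525 in XRN1 and 1237 in control. Read counts here and below are not scaled between libraries. In the spike-in normalised signal 1 read was worth 4.25 in SMG6/XRN1, 3.72 in UPF1/XRN1, 4.05 in XRN1 and 3.85 in control. Close counts can therefore change order once scaled.

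The kinases that phosphorylate eIF2 differed from each other. EIF2AK3, the kinase of endoplasmic reticulum stress known as PERK, was at 5.31 FPKM in SMG6/XRN1, 4.53 in UPF1/XRN1, 4.38 in XRN1 and 2.24 in control. Its reads in XRN1 were 1.94 times those in control (95% interval 1.61 to 2.34), and it stood at about the XRN1 level in both co-depletions. EIF2AK1, the haem-regulated kinase, lay between 54.8 and 59.6 FPKM in the 4 libraries, and EIF2AK4, the kinase that senses uncharged tRNA, between 12.1 and 15.0. EIF2A and EIF2D, which can bring tRNA to the ribosome without eIF2, were at 75.6 and 38.8 FPKM in SMG6/XRN1, 63.4 and 34.6 in UPF1/XRN1, 81.4 and 33.2 in XRN1, and 66.2 and 28.96 in control.

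Of the listed partners of eIF2 phosphorylation outside the family, 11 of 12 were tested and only ATF4 was called in a main comparison, against 4.11% of all loci for that direction. ATF4, the transcription factor made when eIF2 is phosphorylated, was at 603 FPKM in SMG6/XRN1, 601 in UPF1/XRN1, 497 in XRN1 and 241 in control, a log2 change of 1.04 in XRN1 over control. Relative to the median of all loci it was 0.90 there, under 2-fold, and on the isoform signal 1.07. DDIT3, a target of ATF4, was at 23.0, 35.0, 22.4 and 11.1 FPKM and PPP1R15A, the phosphatase subunit that reverses the mark, at 40.6, 53.5, 31.6 and 20.2 in the same order. All 3 were lowest in control. PPP1CC, a catalytic subunit of that phosphatase, was at 177, 147, 201 and 169 FPKM, and PPP1R15B at 10.1, 7.95, 10.02 and 7.92. The median of the list was 0.31 in XRN1 over control, against 0.14 over all loci. It was 0.07 in SMG6/XRN1 over XRN1, against 0.12 over all loci. In UPF1/XRN1 over XRN1 it was -0.05, against 0.02, with 7 of the 11 below 0.

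The eIF3 complex, the scaffold on the small subunit, was nearly flat. Of 12 members tested, EIF3E at 472, 372, 498 and 390 FPKM and EIF3L at 419, 376, 418 and 324 FPKM in SMG6/XRN1, UPF1/XRN1, XRN1 and control were among the most abundant per length. EIF3B, a core subunit, was at 65.3, 71.7, 72.5 and 82.9 FPKM, lowest in SMG6/XRN1. EIF3M was at 288, 228, 303 and 259 FPKM. EIF3D, EIF3G, EIF3H, EIF3I, EIF3J and EIF3K ranged from 90.8 to 272 FPKM over the libraries. In UPF1/XRN1 over XRN1 10 of 12 were below 0 with a median of -0.17, and 11 of 12 were below 0 on the isoform signal. In SMG6/XRN1 over XRN1 9 of 12 were below 0 with a median of -0.07, all 12 below after centring, but only 5 of 12 on the isoform signal, where the direction of the median turned to 0.03. EIF3C and EIF3CL, near-identical copies, were at 99.7, 109, 102 and 105 FPKM and at 70.3, 71.1, 84.7 and 82.0 FPKM, and their separate values are uncertain. EIF3A, outside the gene table, had 18625, 19772, 20034 and 20185 reads, and EIF3F 5012, 5015, 4958 and 4390. These reads are not scaled between libraries, so their order is not that of the levels.

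At the cap, EIF4EBP1 was the single member past 2-fold in a main comparison. EIF4EBP1, which binds eIF4E and keeps it from the scaffold eIF4G until mTOR phosphorylates it, was at 220 FPKM in SMG6/XRN1, 224 in UPF1/XRN1, 267 in XRN1 and 130 in control. It rose by 1.04 on the log2 scale in XRN1 over control, with 2.12 times the reads (95% interval 2.03 to 2.21), and all 3 depleted libraries lay above control. Relative to the median of all loci its change was 0.90, under 2-fold. EIF4EBP2 was at 25.9, 21.9, 23.9 and 20.9 FPKM, and EIF4ENIF1, which carries eIF4E into the nucleus, at 6.55, 4.83, 6.58 and 6.74. EIF4EBP3 had at most 2 reads in any library.

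EIF4E, the cap-binding protein, was at 168 FPKM in SMG6/XRN1, 147 in UPF1/XRN1, 169 in XRN1 and 189 in control. EIF4E2, a cap-binding relative linked to repression, was at 324, 279, 308 and 316 FPKM, and EIF4E3 at 7.59, 5.66, 7.98 and 6.66. All 3 were lowest in UPF1/XRN1. EIF4B, which stimulates the helicase at the cap, was at 154, 151, 136 and 134 FPKM, and EIF4H at 122, 115, 127 and 128. EIF4G1, given by unscaled reads because of its shared locus, had 6691 in SMG6/XRN1, 7216 in UPF1/XRN1, 6142 in XRN1 and 8382 in control, and EIF4G3 7198, 7419, 5686 and 6733. For both genes the order of the co-depleted libraries in reads is not that of their levels. The signal of EIF4G1 in XRN1 was 0.77 times that in control (95% interval 0.74 to 0.80), and that of EIF4G3 in SMG6/XRN1 1.33 times that in XRN1 (1.28 to 1.38).

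Among 13 genes of mTOR and MNK signalling, which acts on eIF4E and its repressors, 1 was called in a main comparison. DEPTOR, an inhibitor of mTOR, fell by 1.21 on the log2 scale in UPF1/XRN1 over XRN1, where 0.534% of all loci fell by 2-fold. It was at 2.50 FPKM in SMG6/XRN1, 1.24 in UPF1/XRN1, 4.16 in XRN1 and 3.13 in control. RPS6KB2, a kinase of ribosomal protein S6, was at 24.3, 39.1, 19.3 and 17.5 FPKM, a log2 change of 0.98 in UPF1/XRN1 over XRN1. MTOR itself was at 30.7, 29.2, 31.1 and 17.6 FPKM, and TSC2 at 10.1, 8.78, 8.72 and 5.07, both lowest in control. PDCD4, an inhibitor of the cap helicase, was at 101, 81.3, 110 and 95.01 FPKM.

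Of 15 partners at the poly(A) tail and the scanning 43S complex tested, none was called in a main comparison, where 1.36% (SMG6/XRN1 over XRN1), 2.52% (UPF1/XRN1 over XRN1) and 4.11% (XRN1 over control) of all loci were higher, so 0 of 15 is near the background. PABPC1, the main cytoplasmic poly(A)-binding protein, was at 919 FPKM in SMG6/XRN1, 803 in UPF1/XRN1, 1051 in XRN1 and 917 in control. DHX29, a helicase needed on structured leaders, was at 34.0, 33.7, 20.1 and 22.6 FPKM, a log2 change of 0.73 for SMG6/XRN1 over XRN1 and of 0.72 for UPF1/XRN1 over XRN1. CYFIP1, a partner of eIF4E, was at 34.2, 28.7, 38.3 and 30.3 FPKM, and GIGYF2, a partner of EIF4E2, at 17.5, 19.8, 15.0 and 13.7.

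The elongation factors lay below XRN1 in the library labelled UPF1/XRN1. EEF1A1, which carries aminoacyl-tRNA to the ribosome, was at 10766 FPKM in SMG6/XRN1, 9933 in UPF1/XRN1, 12558 in XRN1 and 11045 in control. Its isoforms held 52.8% to 57.4% of the signal of all members in each library. EEF1G was at 1048, 877, 1247 and 1152 FPKM, and EEF1D, which recharges eEF1A with GTP, at 413, 390, 578 and 495. In all 3, UPF1/XRN1 was lowest and XRN1 highest. EEF1A2, the form of muscle and neurons, was at 35.9, 30.5, 35.1 and 47.5 FPKM, highest in control. The log2 changes in UPF1/XRN1 over XRN1 were -0.34 for EEF1A1, -0.51 for EEF1G, -0.57 for EEF1D and -0.20 for EEF1A2, all 4 below 0 on the FPKM, the centred FPKM and the isoform signal. Below 0 in SMG6/XRN1 over XRN1 were 3 of 4, EEF1A2 being at 0.03 and EEF1D lowest at -0.48. None reached 2-fold. EEF1E1, a scaffold of the tRNA synthetase complex that shares its locus, had 3207 reads in SMG6/XRN1, 2997 in UPF1/XRN1, 3201 in XRN1 and 2721 in control.

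EEF2K, the kinase that slows elongation by phosphorylating eEF2, was at 6.45 FPKM in SMG6/XRN1, 4.60 in UPF1/XRN1, 7.81 in XRN1 and 4.29 in control. Its log2 change was -0.65 in UPF1/XRN1 over XRN1, the lowest of the 49 in that comparison, and 0.73 in XRN1 over control. EIF5A, the hypusine-bearing factor that helps the ribosome past runs of proline, was at 415, 418, 488 and 539 FPKM, with both co-depleted libraries below XRN1 and control. EIF5A2 was at 4.28, 4.05, 5.55 and 3.55 FPKM. Its log2 change in XRN1 over control was 0.53 on FPKM but 0.02 on the isoform signal. In SMG6/XRN1 over control it was 0.22 and -0.11, and in UPF1/XRN1 over control 0.15 and -0.30. EIF5AL1 was at 12.9, 11.3, 15.9 and 16.7 FPKM. It is a near-identical copy of EIF5A, so its value is uncertain. EIF5B, which joins the subunits, was at 53.5, 48.5, 49.6 and 62.6 FPKM.

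Of the genes that make hypusine on eIF5A and diphthamide on eEF2, 9 were tested and 1 was called in a main comparison, against 4.11% of all loci for that direction. WDR85, a diphthamide enzyme, was at 19.2 FPKM in SMG6/XRN1, 25.8 in UPF1/XRN1, 13.4 in XRN1 and 4.94 in control. It rose by 1.27 on the log2 scale in XRN1 over control, and by 1.13 relative to the median of all loci. DPH5 was at 146, 119, 118 and 79.9 FPKM, DPH3 at 15.0, 16.8, 10.9 and 14.5, and ATPBD4 at 21.7, 20.1, 22.7 and 20.3.

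Release factors were level. ETF1, which reads all stop codons, was at 95.4 FPKM in SMG6/XRN1, 97.5 in UPF1/XRN1, 90.0 in XRN1 and 91.1 in control. GSPT1, its GTPase partner, was at 188, 185, 195 and 189 FPKM, and GSPT2 at 4.46, 3.94, 4.02 and 4.58. Over the 5 comparisons the lowest log2 change of the 3 was -0.17 and the highest 0.12, both for GSPT2. The 7 ribosome rescue genes tested were all above 0 in UPF1/XRN1 over XRN1 with a median of 0.32, against 0.02 over all loci, and none reached 2-fold in a main comparison, against 1.36% to 4.11% of all loci called higher. GTPBP2, a rescue GTPase, was at 8.78, 13.4, 7.64 and 5.78 FPKM, and NEMF, which marks stalled chains, at 55.2, 52.4, 41.2 and 29.7. GTPBP1 was at 17.9, 22.0, 19.0 and 11.7 FPKM, and ASCC3, which splits collided ribosomes, at 18.9, 17.9, 15.0 and 15.6.

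Of 10 factors of mitochondrial translation tested, none was called in a main comparison, against 1.36% to 4.11% of all loci called higher there. MRRF alone was called over control, at 1.54 in SMG6/XRN1, against 9.3% of all loci, and at 1.57 in UPF1/XRN1, against 10.2%. MRRF, the mitochondrial recycling factor, was at 54.6 FPKM in SMG6/XRN1, 55.8 in UPF1/XRN1, 34.1 in XRN1 and 18.1 in control. GFM2, its partner, was at 54.7, 44.7, 34.4 and 32.4 FPKM. TUFM, the mitochondrial counterpart of eEF1A, was at 99.1, 83.1, 132 and 110 FPKM, lowest in UPF1/XRN1 as EEF1A1 was. GFM1 was at 19.2, 17.2, 21.3 and 21.2 FPKM.

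**Figure D2:**
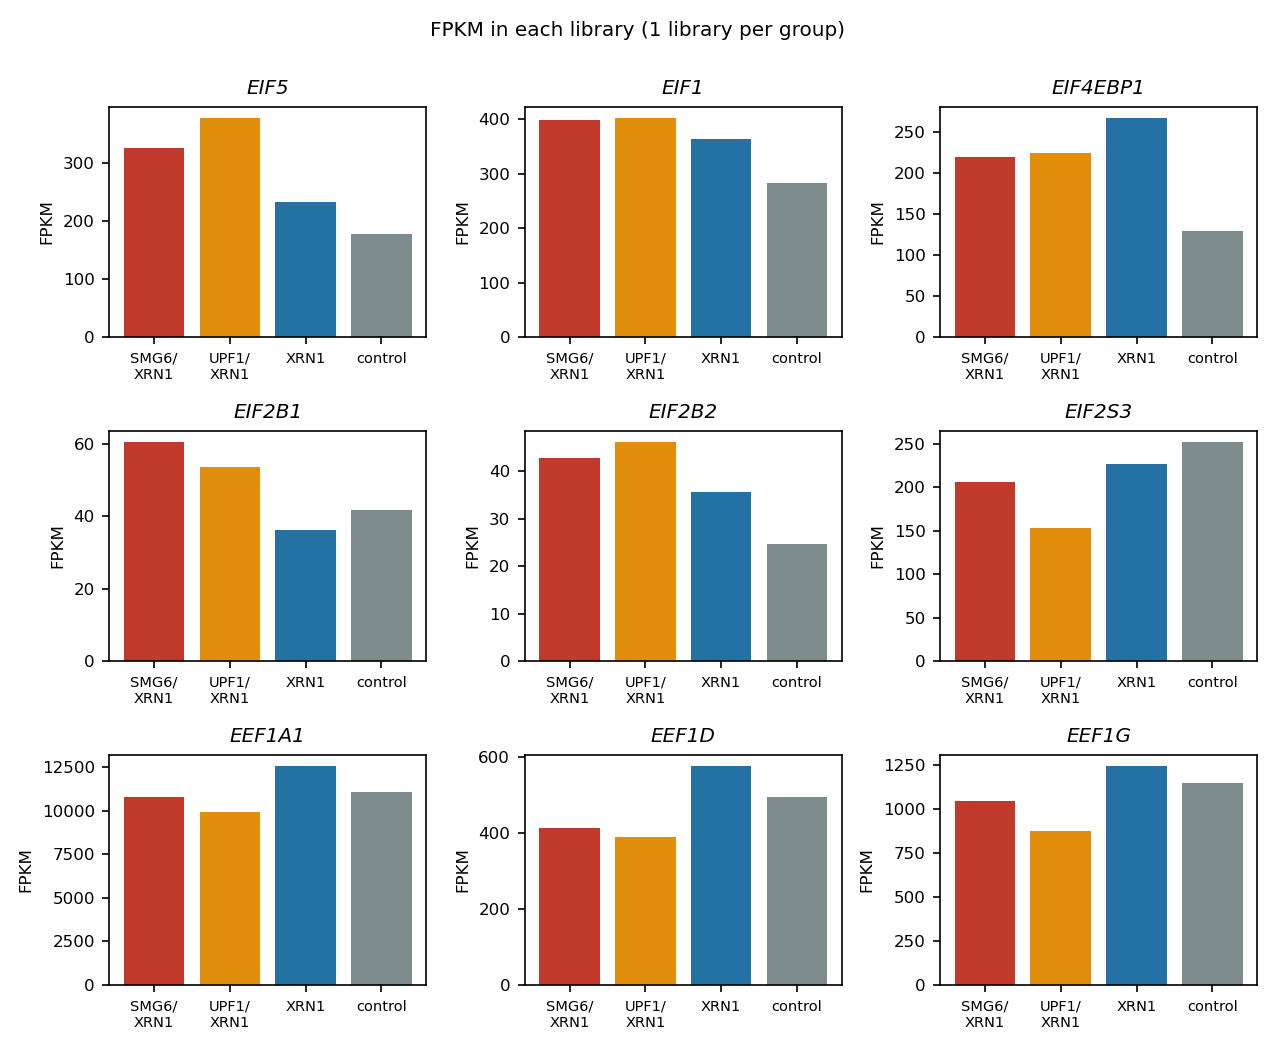
Bars give FPKM, from 0, in the single library of each group for 9 genes, left to right SMG6/XRN1, UPF1/XRN1, XRN1 and control. EIF5 is highest in UPF1/XRN1 at 378 and lowest in control at 178, EIF4EBP1 is lowest in control at 130, and EEF1A1, EEF1D and EEF1G are lowest in UPF1/XRN1 and highest in XRN1.

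Many elongation and eIF3 mRNAs begin with a 5' terminal oligopyrimidine (TOP) tract, by which mTOR controls their translation. Of 9 members listed as carrying one, 7 were tested, and 6 of the 7 were below 0 in UPF1/XRN1 over XRN1 with a median of -0.34, against 0.02 over all loci. EIF4B was the exception at 0.15. Their median was -0.08 in SMG6/XRN1 over XRN1, with 5 of 7 below 0. Relative to control the listed members were split otherwise, with 6 of 7 above 0 in XRN1 over control (median 0.11), 2 of 7 in SMG6/XRN1 over control (median -0.04) and 1 of 7 in UPF1/XRN1 over control (median -0.15). Annotated starts are shown because the tract lies at the first base, of EEF1A1, EIF4B, EIF3F and EEF1G from the list, of EIF2S3 and EIF3D, which are not listed but begin with such a tract, and of EIF5 and EIF1, which are not listed and lack one. Only these 4 of the 9 listed members had a matched RefSeq start, and 3 of the 4 begin with the tract. Each line has 10 bases before the RefSeq start and 20 from it (GRCh38.p14), and the pyrimidine run at the start is in capitals, or the first base where that is a purine.
EEF1A1, chr6:73521013-73521042, minus strand: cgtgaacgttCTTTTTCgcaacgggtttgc
EIF4B, chr12:53006446-53006475, plus strand: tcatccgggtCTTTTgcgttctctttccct
EIF3F, chr11:7987327-7987356, plus strand: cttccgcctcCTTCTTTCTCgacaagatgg
EIF2S3, chrX:24054946-24054975, plus strand: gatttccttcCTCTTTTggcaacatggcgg
EIF3D, chr22:36529147-36529176, minus strand: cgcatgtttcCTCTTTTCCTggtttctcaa
EEF1G, chr11:62573872-62573901, minus strand: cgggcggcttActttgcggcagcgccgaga
EIF5, chr14:103334227-103334256, plus strand: ggcgttgttcAgtcagagcgagaacattcc
EIF1, chr17:41688875-41688904, plus strand: ccgcccctctGccccagtcactgagccgcc
A start with C followed by at least 4 bases that are C or T, read on the transcript's strand at the annotated first base alone, was found in 10 of 50 members matched, against 4.07% of 35116 RefSeq starts. EEF1G and EIF5 begin with A there, EIF1 with G. Of the members whose start matched, 8 were tested, and 6 of the 8 were below 0 in UPF1/XRN1 over XRN1 with a median of -0.21. Another 31 were both tested and matched to a RefSeq start without one, and 19 of them were below 0, with a median of -0.07. In SMG6/XRN1 over XRN1 the medians were -0.06 with the tract and -0.01 without. In XRN1 over control the order was the other way, 0.16 with it and 0.04 without. Over control the medians were 0.17 with it and 0.07 without in SMG6/XRN1, and -0.03 and 0.06 in UPF1/XRN1.

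Among isoforms kept, those of the members passed 2-fold about as often as other isoforms in the co-depletions over XRN1. The isoform table gives the authors' spike-in normalised signal, in which 1 read was worth 3.72 to 4.25, and an isoform needed a mean signal of 30.9 to be kept. It is not divided by length, so isoforms are compared between libraries and as shares of reads. Of 632 member isoforms 345 were kept. In SMG6/XRN1 over XRN1 80 of 345 were at least 2-fold higher, 23.2% against 25.1% of all 61408 kept, and 29 were lower, 8.41% against 9.3%. In UPF1/XRN1 over XRN1 91 were higher, 26.4% against 27.1%, and 40 lower, 11.6% against 11.5%. In XRN1 over control 56 were higher, 16.2% against 24.3%, and 42 lower, 12.2% against 12.6%. These shares lie close to the background in both co-depletions over XRN1. Without the limit on the mean, 20.6% of member isoforms against 17.2% of all isoforms were higher in SMG6/XRN1 over XRN1. In UPF1/XRN1 over XRN1 the shares were 24.4% against 19.2%. Of all 199618 isoforms so counted, 122816 had any signal, and an isoform without signal cannot be called. Members and all isoforms are therefore not shown to be like sets there, and no excess is read from these shares.

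Isoforms with exactly the exon chain of a GENCODE transcript annotated as an NMD target numbered 28 among the members, and 20 were kept. In SMG6/XRN1 over XRN1 4 of 20 were at least 2-fold higher, against 40% of all such isoforms, and in UPF1/XRN1 over XRN1 11 of 20, against 44.7%. In XRN1 over control 6 of 20 were, against 33.8%. At least 2-fold lower were 3 of 20 in SMG6/XRN1 over XRN1, 3 of 20 in UPF1/XRN1 over XRN1 and 1 of 20 in XRN1 over control. The share of all NMD-annotated isoforms that were lower is not given here. Of the 20, 6 were listed at 0 in some library, so part of these calls can set reads in one library against none in the other. Together the 28 held 0.61% of the members' signal in SMG6/XRN1, 0.63% in UPF1/XRN1, 0.46% in XRN1 and 0.46% in control, against 3.59%, 3.98%, 2.86% and 2.51% for such isoforms over all loci. EEF1A1 alone held 52.8% to 57.4% of the members' signal, so this 1 gene largely sets the total behind the members' shares. Their low level is therefore not a measure of the members in general.

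**Figure D3:**
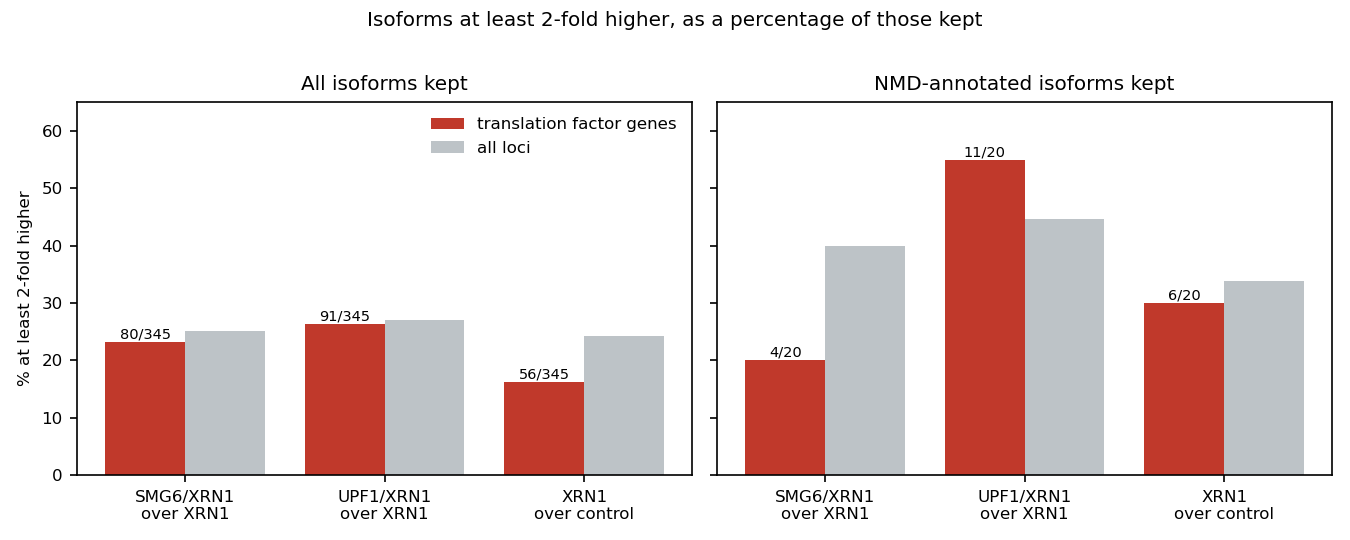
Bars give the percentage of kept isoforms at least 2-fold higher, red for translation factor genes with their counts above and grey for all loci, for all isoforms at left and for NMD-annotated ones at right. Red and grey differ by under 2 percentage points for all isoforms in both co-depletions over XRN1. Among the 20 NMD-annotated isoforms, 4 were higher in SMG6/XRN1 over XRN1, against 40% of all such isoforms. In UPF1/XRN1 over XRN1 11 were, against 44.7%, and in XRN1 over control 6, against 33.8%.

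EIF6-206 was an NMD-annotated isoform past 2-fold in both co-depletions over XRN1. EIF6 keeps the large ribosomal subunit from joining too early, and its gene shares a locus, so it is given by reads, 2299 in SMG6/XRN1, 2956 in UPF1/XRN1, 2137 in XRN1 and 2039 in control. EIF6-206 had 614 reads in SMG6/XRN1, 802 in UPF1/XRN1, 292 in XRN1 and 244 in control, 2.21 times (95% interval 1.92 to 2.55) and 2.52 times (2.20 to 2.89) the XRN1 signal in the co-depletions. It held 26.7% and 27.1% of the signal of EIF6 there, against 13.7% in XRN1 and 11.98% in control. The coding isoform EIF6-203 held 52.1%, 54.2%, 70.2% and 64.4% in SMG6/XRN1, UPF1/XRN1, XRN1 and control. EIF6-206 lacks a 176-base exon of EIF6-203 (chr20:35280654-35280829), a length that is no multiple of 3.

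EIF4B-204 and EIF3G-214 rose past 2-fold in UPF1/XRN1 over XRN1 and stood between in SMG6/XRN1. EIF4B-204 had 676 reads in SMG6/XRN1, 1064 in UPF1/XRN1, 430 in XRN1 and 280 in control, or 5.19%, 7.57%, 3.40% and 2.20% of EIF4B. Its exon is longer by 90 bases (chr12:53021716-53021805) than in EIF4B-201. EIF3G-214 had 219, 298, 123 and 71 reads, or 2.95%, 3.80%, 1.51% and 0.90% of EIF3G, with 21 bases (chr19:10119067-10119087) that EIF3G-201 lacks. All intervals of both for a co-depletion over XRN1 lay above 1, the lowest bound being 1.46 for EIF4B-204 and 1.49 for EIF3G-214, both in SMG6/XRN1.

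EIF2B4-202 kept another order. It had 254 reads in SMG6/XRN1, 173 in UPF1/XRN1, 146 in XRN1 and 71 in control, or 24.9%, 13.6%, 16.7% and 8.08% of EIF2B4. Its signal rose 2.16 times in XRN1 over control (95% interval 1.62 to 2.91), while UPF1/XRN1 was 1.09 times XRN1 (0.87 to 1.37), an interval that includes no change. It lacks 26 bases of EIF2B4-205 (chr2:27368114-27368139). The ends of these reading frames are shown because the early stop is what sets the isoforms apart, 27 coding bases and the stop codon in capitals, with the stop's GRCh38 position.
EIF6-206, stop at chr20:35279985-35279987, minus strand: agggctggtgcatcccaagacttcaatTGA
EIF6-203, stop at chr20:35279197-35279199, minus strand: cgggattccctcattgacagcctcaccTGA
EIF4B-204, stop at chr12:53021764-53021766, plus strand: ttcaaggtcactcaagggatttgtgcaTAA
EIF4B-201, stop at chr12:53040221-53040223, plus strand: gaaaatgagggagaagattatgccgaaTAG
EIF3G-214, stop at chr19:10119080-10119082, minus strand: gagccagagctactgccgggaggtgagTGA
EIF3G-201, stop at chr19:10115114-10115116, minus strand: gtcgagtgggccaagccgtccaccaacTAA
EIF2B4-202, stop at chr2:27367794-27367796, minus strand: ggtgattcaggattacacaacaccgccTAA
EIF2B4-205, stop at chr2:27364400-27364402, minus strand: gttctacgagtcaagagcagtgaccagTGA
The stop of EIF6-206 lies 225 bases before the last exon junction, that of EIF4B-204 229, that of EIF3G-214 267 and that of EIF2B4-202 638. In each coding partner the stop lies after the last junction. The reading frames are of 108 codons in EIF6-206 against 245 in EIF6-203, 175 in EIF4B-204 against 611 in EIF4B-201, 52 in EIF3G-214 against 320 in EIF3G-201 and 235 in EIF2B4-202 against 522 in EIF2B4-205. Of the 20 NMD-annotated isoforms kept, 17 have a complete frame in the annotation, and their stops lie 104 to 4057 bases before the last junction, the distance by which such transcripts are annotated.

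**Figure D4:**
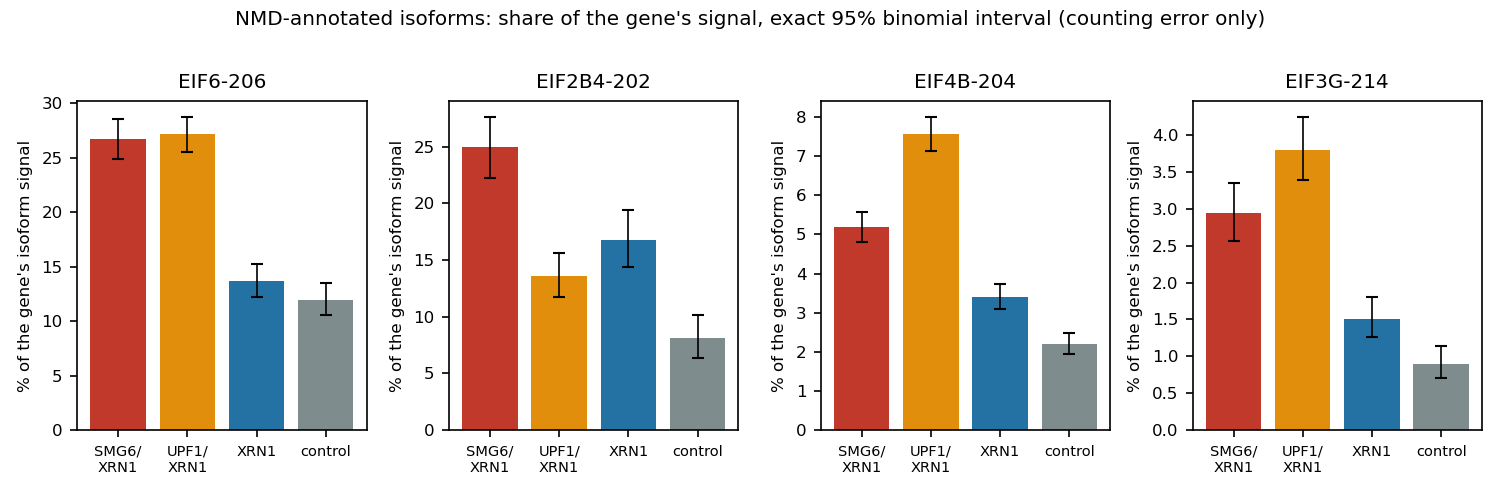
Bars give the percentage of each gene's isoform signal held by 1 NMD-annotated isoform, left to right SMG6/XRN1, UPF1/XRN1, XRN1 and control, with exact 95% binomial intervals for counting error. EIF6-206 is near 27% in both co-depletions and near 12% to 14% in the others, EIF4B-204 and EIF3G-214 are highest in UPF1/XRN1, and EIF2B4-202 is highest in SMG6/XRN1.

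Of the 20 NMD-annotated isoforms kept, 14 were above 0 and 6 below in each co-depletion over XRN1. The lowest log2 change was -7.01 in SMG6/XRN1 over XRN1 and -6.70 in UPF1/XRN1 over XRN1, and not every isoform that fell is named here. Among the rarer ones, 4 that were higher in UPF1/XRN1 are given. EIF2D-208 had 19 reads in SMG6/XRN1, 68 in UPF1/XRN1, 13 in XRN1 and 6 in control. EIF2B3-206 had 16, 43, 9 and 6 reads, EIF2B5-213 had 37, 71, 20 and 17, and EIF3H-211 had 64, 83, 16 and 9. The interval of UPF1/XRN1 over XRN1 lay above 1 for all 4, but that of SMG6/XRN1 over XRN1 included 1 for EIF2D-208 and EIF2B3-206. Several abundant ones differed less between libraries, in reads that are not scaled. EIF3M-212 had 1293, 1145, 1371 and 1203 reads, EIF4E-211 had 1607, 1654, 1526 and 1713, and EEF1D-224 had 703, 900, 762 and 644. EIF2A-211 had 758, 286, 533 and 594 reads, lowest in UPF1/XRN1, where its log2 change over XRN1 was -1.02.

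The leading isoform in control, of the 58 members with enough signal, held a smaller share in the mean of the co-depletions than in control in 40, an equal one in 3 and a larger one in 15. It was thus smaller in 69.0% of members, against 61.7% of all 17626 symbols with as much signal, and choosing the isoform by its level in control favours a loss. With the leading isoform chosen by the mean of the 4 libraries, an alternative added after seeing the data, 37 of 58 were smaller, 63.8% against 50.0% of all symbols. Both choices count equal shares as not smaller, 3 of the 58 members but 2286 of the 17626 symbols, so the percentages are not over like sets. By the second choice the median change of all symbols differed from none only by rounding, so the 50.0% includes losses of rounding size. No test of these differences was made. The 12 largest losses are given. EIF2A-201 held 27.4% of EIF2A in SMG6/XRN1, 25.99% in UPF1/XRN1, 32.0% in XRN1 and 42.1% in control. EIF2B2-201 held 81.2%, 78.2%, 90.3% and 94.8% of EIF2B2, EIF2B4-205 held 63.9%, 69.2%, 69.1% and 78.7% of EIF2B4, and EIF4B-201 held 73.1%, 67.0%, 79.3% and 79.4% of EIF4B. In these 4 both co-depleted libraries lay below control. The leading isoforms of EIF3F, EIF4E, EIF4E3, EIF3L, EIF4G1, ETF1 and EIF3G followed, with EIF6, each lower by 4.16 to 11.2 percentage points in the mean of the co-depletions than in control. For EIF4E3 the SMG6/XRN1 value of 69.5% lay below, and the UPF1/XRN1 value of 87.5% above, the 83.6% of control. The largest gains were in EIF1AD-207, by 7.12 percentage points, GSPT1-206, by 5.82, and EIF2AK4-201, by 4.02.

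The 12 member isoforms with the largest smaller change over XRN1 in both co-depletions were all under 1 read in XRN1. They belong to EIF4B, EIF3D, EIF3B, EIF5B, EIF2AK4, EIF3F, EIF2B5, EIF5, EIF4G1, EIF3M and EIF1AD, and no fold against XRN1 is given for them. Only 1, EIF3F-203, was also listed at 0 in control, with 46 reads in SMG6/XRN1 and 55 in UPF1/XRN1. The isoform of EIF5B among them had 70 reads in SMG6/XRN1, 265 in UPF1/XRN1, 0 in XRN1 and 265 in control, and XRN1 was the single library at 0.

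Among the 205 member isoforms with at least 30 reads in every library, a limit set after these values were seen, the 8 with the largest smaller rise over XRN1 in the co-depletions are given. Of the 205, 16 were at least 2-fold higher over XRN1 in both co-depletions and 4 at least 2-fold lower in both. The share of all isoforms that did so was not computed. EIF3L-202 stood highest, with 900 reads in SMG6/XRN1, 1131 in UPF1/XRN1, 225 in XRN1 and 140 in control. It is annotated as protein-coding, with a weak start context (shown above), a leader of 715 bases and 7 upstream frames that close before its start. An assembled isoform of EIF5 with a junction outside EIF5-201 had 759, 1199, 223 and 170 reads, and one of EIF3E 453, 559, 145 and 86. EIF3K-207, annotated as a retained intron, had 323, 360, 117 and 66 reads, and EEF1A1-202 had 261, 340, 107 and 92, at most 0.06% of EEF1A1. In these 5 both co-depleted libraries exceeded control as well as XRN1, the rise over XRN1 being set by the choice. EIF4E-201 did not follow, with 132 reads in SMG6/XRN1, 275 in UPF1/XRN1, 40 in XRN1 and 358 in control, highest in control. An assembled isoform of EIF3I had 145, 338, 48 and 80 reads and EIF2AK3-203 had 167, 185, 59 and 88, both lowest in XRN1. The 4 that were lower in both were EEF1D-202, with 32, 32, 114 and 159 reads, and EIF4G1-233, with 144, 83, 387 and 361. EIF2AK3-202, with 92, 103, 208 and 60 reads, and an isoform of EIF4ENIF1, with 69, 61, 154 and 116, were the others.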

How the data were processed

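Cytoplasmic poly(A)+ RNA had been released with digitonin and made into ScriptSeq v2 libraries, per the labels' protocols. Per the submitters' processing notes, the tools named are Cufflinks 2.0.2, TopHat2 2.0.6, Bowtie 0.12.7 and CASAVA 1.8.2, and the genome is hg19. The authors deposited FPKM per assembled locus and a spike-in normalised signal per assembled isoform, with identifiers, class codes and marks as other columns. Neither the spike-in factor nor the strand setting is given in the sources used here. Near-identical copies and overlapping genes are therefore uncertain. The 5'-end and CAGE libraries were not analysed here.

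From these, log2 ratios were computed with a pseudocount of 1, over loci with a mean of at least 1 FPKM whose symbol held at least 80% of the signal. Reads were estimated from the step of the signal, since 86.0% to 87.0% of low values at loci with 1 isoform were whole multiples within 0.01 read. Read ratios carry exact conditional binomial and shares exact Clopper-Pearson 95% intervals, for counting error only. With 1 library per group no test was run. Transcript types, leaders and stops came from GENCODE 29 (GRCh38), matched by transcript identifier and never by position, for 92.9% of identifiers, and starts from RefSeq. The calling step was checked on simulated data. Genes named were the 6 largest rises and 6 largest falls of each main comparison, core subunits, members past 2-fold and up to 2 per direction of each list. For isoforms they were the 12 with the largest smaller rise and the 12 genes whose leading isoform lost most share, and further isoforms were chosen after their values were seen. The members and lists were chosen with earlier results of these data known. Python 3.11.15, pandas 2.3.3, numpy 2.4.6, scipy 1.17.1 and matplotlib 3.10.9 were used.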

Additional observations from a re-analysis of the deposited data

How the results depend on the processing

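Each result was recomputed under the alternatives that apply to it, and 77 of 103 values moved by no more than the limits of 1.5 times for a count and 0.1 for a median log2 change. Filters of none or of a mean of at least 5 FPKM moved no count or median past them, nor did a pseudocount of 10 on the isoform signal, while a pseudocount of 0.1 called 1 member higher in SMG6/XRN1 over control. Centring on all loci left 0 members called higher in XRN1 over control (EIF4EBP1 lost) and in UPF1/XRN1 over control (EIF5 lost), and moved the members' median to -0.0776 in XRN1 over control, -0.15 in SMG6/XRN1 over XRN1, -0.19 in SMG6/XRN1 over control and -0.18 in UPF1/XRN1 over control. Isoform signal summed per locus called 2 higher in each co-depletion over control, EIF5 and EIF2AK3, with medians of 0.11 in SMG6/XRN1 over XRN1 and 0.18 in SMG6/XRN1 over control. The same sum per symbol over 58 members, an alternative chosen after seeing the data, called 1 higher and 1 lower in UPF1/XRN1 over XRN1, 2 higher in SMG6/XRN1 over control, and 3 higher and 1 lower in UPF1/XRN1 over control, with medians of 0.10 in SMG6/XRN1 over XRN1 and 0.18 in SMG6/XRN1 over control. Without an isoform filter 130 of 632 member isoforms were higher and 57 lower in SMG6/XRN1 over XRN1, and 154 higher and 63 lower in UPF1/XRN1 over XRN1, which for the higher ones is 20.6% against 17.2% of all isoforms and 24.4% against 19.2%. Of all 199618 isoforms in that unfiltered count, 122816 had any signal, and the rest cannot be called. With a limit 4 times as high the member counts were 49, 14, 54 and 23 of 257, in the same order. The higher ones are then 19.1% against 19.2% of all isoforms and 21.0% against 20.9%. Why the counts moved with the limit was not tested. Shares of isoforms do not depend on library scaling. No paired analysis was possible because each group had 1 library. The cause of the differences between FPKM and spike-in scaling was not tested.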

Other observations

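Processed copies of EEF1A1 were listed with high values although they were left out as pseudogenes. EEF1A1P5 was at 667 FPKM in SMG6/XRN1, 593 in UPF1/XRN1, 824 in XRN1 and 706 in control, and EEF1A1P6 at 223, 213, 277 and 236 FPKM in the same order. Both were lowest in UPF1/XRN1 and highest in XRN1, the order of EEF1A1 itself. Whether these are reads of EEF1A1 placed on its copies was not tested.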
